A study of Mus musculus with 4 samples.

Results

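The accessible chromatin described here lies at 37 genes of voltage-gated sodium channels, voltage-gated calcium channels, the sodium leak channel and their auxiliary subunits. ATAC-seq, a method that uses the Tn5 transposase to tag open DNA, was applied to motor neurons from the cervical spinal cord of mouse embryos at embryonic day 12.5. All embryos carried the ChAT::GFP transgene, a fluorescent reporter under the control of the choline acetyltransferase gene, and GFP-positive cells were sorted by their fluorescence. There were 2 libraries of control littermates, which the titles call Wt, and 2 libraries deficient for Hoxa5, a homeodomain transcription factor. Beyond these names, the labels give neither the Hoxa5 allele, nor how far the controls differ from wild type, nor the number of embryos in a library. The comparison asks which open regions differ without Hoxa5. Intervals of the 4 peak lists that overlapped by 1 bp or more were merged into regions. Each region was assigned by its midpoint to the protein-coding gene body that holds it, the shortest where bodies are nested, and otherwise to the nearest body within 100 kb (build mm10). This gave 996 regions at the 37 genes, of 165778 regions assigned to any gene and 199576 regions in all. Of the 996, 166 lay outside the gene body. The farthest of them lay 98.5 kb from Cacng3 and was called in 1 list, and the nearest region left out lay 103 kb from Cacna2d1 and was called in 3 lists.

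Voltage-gated sodium channels carry the rising phase of the action potential. Each is a large pore-forming α subunit (Scn genes ending in a) with small β subunits that adjust gating and adhesion. Voltage-gated calcium channels turn depolarisation into calcium entry: the L-type Cav1 channels act mainly at cell bodies and dendrites and in muscle, the Cav2 channels trigger transmitter release at presynaptic terminals, including the neuromuscular junction, and the low-threshold Cav3 (T-type) channels shape bursting. Their α2δ and β subunits bring the pore to the membrane, while the γ family members listed here are TARPs, which traffic AMPA receptors. Nalcn conducts a background sodium leak that sets the resting potential, and Fam155a (also named Nalf1) encodes an auxiliary subunit of the Nalcn complex.

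The lists differed in length, and this bears on every count below. They held 165866 and 163016 peak summits in controls and 192771 and 206114 in mutants. Read depth is not stated, but fold and p imply a local background, which was worked out for a random draw of each list's summits. Its lowest value was 5.43 tags in control library 1 and 4.39 in control library 2. In mutant library 1 it was 5.14 and in mutant library 2 it was 6.06, the highest of the 4. These values hold for the summits drawn and not for the whole lists. A longer list yields more weak regions, and list length and genotype cannot be told apart in raw counts. Of 8 marker genes of motor neurons, 7 had a peak within 1 kb of a gene end in all 4 libraries, and Isl2 had none in mutant library 1. Such peaks also stood at 5 of 5 progenitor, 3 of 3 glial, 3 of 4 interneuron, 3 of 4 sensory neuron, 1 of 3 endothelial or blood and 1 of 3 skeletal muscle genes in all 4 libraries, so they do not by themselves tell the cell types apart. Myog, a muscle regulator gene, had a peak in both controls and in neither mutant. In bulk material, a region open in fewer cells and a region less open in each cell cannot be told apart.

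Listed start sites were read for open chromatin, and a gene may have promoters that are not listed. The reference table lists transcription starts for 29 of the 37 genes, with 40 starts in all; Scn3a, Scn3b, Cacna1a, Cacna1g, Cacna1h, Cacna2d4, Cacng4 and Fam155a were not matched. A region called in all 4 lists overlapped the window from 250 bases before to 50 bases after a start in 22 of the 29 genes (75.9%), against 62.1% of 17491 protein-coding genes. No gene had a start region found in only 1 genotype. The 8 windows below are shown because they hold both start regions of the genes with a strong and a weak start, the leak channel start that ranked higher in both mutants, and a muscle channel start with no peak. Each line gives the 250 bases before the start, 5′ to 3′ on the gene's strand, from RefSeq (GRCm38.p6, which shares its coordinates with mm10). Capitals mark matches, on either strand, to GGGCGG (the GC box bound by Sp factors), TATAAA (the TATA box), TAATTA (a homeodomain core) or TGATTNAT (a Hox and Pbx composite type).
Scn2a start 1, chr2:65620519-65620768, plus strand: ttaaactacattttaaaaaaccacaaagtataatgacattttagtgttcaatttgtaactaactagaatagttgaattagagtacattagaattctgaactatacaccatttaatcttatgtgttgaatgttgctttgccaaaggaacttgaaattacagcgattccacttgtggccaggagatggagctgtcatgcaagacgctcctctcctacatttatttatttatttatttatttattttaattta
Scn2a start 2, chr2:65668436-65668685, plus strand: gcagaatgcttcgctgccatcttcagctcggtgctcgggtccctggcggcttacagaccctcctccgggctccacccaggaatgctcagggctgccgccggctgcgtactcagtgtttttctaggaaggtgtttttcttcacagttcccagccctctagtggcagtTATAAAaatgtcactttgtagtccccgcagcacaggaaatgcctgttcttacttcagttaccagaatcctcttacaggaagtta
Scn8a start 1, chr15:100870395-100870644, plus strand: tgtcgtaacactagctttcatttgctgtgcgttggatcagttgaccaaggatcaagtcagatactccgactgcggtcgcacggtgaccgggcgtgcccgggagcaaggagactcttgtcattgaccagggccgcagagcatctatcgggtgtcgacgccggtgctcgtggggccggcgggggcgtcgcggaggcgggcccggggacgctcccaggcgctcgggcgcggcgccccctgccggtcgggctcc
Scn8a start 2, chr15:100936021-100936270, plus strand: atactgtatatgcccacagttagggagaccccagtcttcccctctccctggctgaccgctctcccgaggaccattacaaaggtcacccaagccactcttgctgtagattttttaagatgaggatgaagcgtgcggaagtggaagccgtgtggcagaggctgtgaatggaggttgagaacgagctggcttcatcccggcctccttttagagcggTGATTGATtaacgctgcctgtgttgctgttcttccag
Cacnb3 start 1, chr15:98632078-98632327, plus strand: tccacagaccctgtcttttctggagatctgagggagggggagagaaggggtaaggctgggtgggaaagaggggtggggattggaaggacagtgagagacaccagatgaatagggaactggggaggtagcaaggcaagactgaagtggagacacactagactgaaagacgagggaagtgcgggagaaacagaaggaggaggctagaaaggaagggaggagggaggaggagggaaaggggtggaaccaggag
Cacnb3 start 2, chr15:98634517-98634766, plus strand: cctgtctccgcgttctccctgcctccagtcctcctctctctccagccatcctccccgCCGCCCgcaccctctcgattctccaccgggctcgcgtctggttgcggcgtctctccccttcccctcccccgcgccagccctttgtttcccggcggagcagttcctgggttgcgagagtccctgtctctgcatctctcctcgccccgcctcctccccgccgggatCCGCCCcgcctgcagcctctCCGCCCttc
Nalcn start 1, chr14:123627145-123627394, minus strand: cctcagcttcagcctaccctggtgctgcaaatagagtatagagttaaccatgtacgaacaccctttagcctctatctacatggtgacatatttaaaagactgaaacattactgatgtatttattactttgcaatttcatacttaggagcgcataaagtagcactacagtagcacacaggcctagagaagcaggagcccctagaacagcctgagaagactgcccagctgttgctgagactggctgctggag
Cacna1s start 1, chr1:136052561-136052810, plus strand: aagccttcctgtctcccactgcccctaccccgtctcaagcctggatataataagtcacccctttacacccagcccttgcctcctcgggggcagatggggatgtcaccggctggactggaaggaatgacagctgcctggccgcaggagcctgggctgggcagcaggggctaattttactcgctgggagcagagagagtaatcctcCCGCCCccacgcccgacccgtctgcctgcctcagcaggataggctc

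The motif matches were few. GGGCGG was found in 12 of 27 windows whose start region was called in all 4 lists and in 2 of the other 13, against 42.6% of 21262 windows of protein-coding genes. TATAAA was found in 2 of the 40 windows (5%, against 11.6% of all), of which the one shown is that of Scn2a start 2. TAATTA was found in none of the 40 (4.3% of all). TGATTNAT was found in 1 of 40, at Scn8a start 2 (2.52% of all). These are letter matches in a 250-base window and say nothing of binding. Windows with a start region in all 4 lists had a median of 62.4% G and C bases, from 29.6% to 86.4%, and the other 13 windows had a median of 50.4%, from 39.6% to 62.4%. The lowest value, 29.6% with 2 CpG dinucleotides, is Scn2a start 1, and that of Cacna1d start 2 is the highest, with 50 CpG.

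The 7 genes with a listed start but no start region in all 4 lists included channels best known from other excitable tissues. Scn4a encodes the sodium channel of adult skeletal muscle and Cacna1s its L-type calcium channel, Cacna1f encodes the L-type channel of retinal photoreceptors, and Scn10a and Scn11a encode channels of nociceptive sensory neurons. No library had a peak at the listed start of Scn4a, Cacna1s, Cacna1f or Scn11a. The listed start of Scn4a lies inside its body. A region called in all 4 lists (chromosome 11, 106366330 to 106366684) lay 948 bp beyond the upstream end of that body. The empty window therefore does not show that Scn4a lacked an open promoter. At Scn10a a weak region was called in control library 2, at the 40.3 percentile of its list, and in mutant library 2, at the 15.0 percentile. Here and below, the percentile ranks the strongest peak of a region by the authors' −log10 p within its own list, and the strongest peak of a list is near 100. Tissue did not settle the matter: Scn9a, a further sodium channel gene of sensory neurons, had a start region in all 4 lists. It stood at 81.8 and 85.6 in controls and 86.1 and 90.2 in mutants. The remaining 2 of the 7 genes without such a start region were Cacna1e, a Cav2 channel gene, and Cacng8, a TARP gene. Cacna1e had a region in all 4 lists just before the window of its start (chromosome 1, 154726363 to 154727127), at 81.0 and 84.2 in controls and 80.4 and 82.0 in mutants. That listed start lies inside the body. Another region in all 4 lists (154884150 to 154885067) spanned the upstream end of the body, at 58.9 and 64.0 in controls and 66.5 and 55.6 in mutants. Cacng8 held a strong region inside its body (chromosome 7, 3410930 to 3411779), at percentiles of 96.1 and 95.7 in controls and 96.9 and 97.2 in mutants.

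The open start with the highest percentile was that of Cacna1b, the N-type channel gene of nerve terminals. It stood at 97.1 and 97.2 in controls and at 96.6 and 97.6 in mutants, and the groups overlapped. Scn8a, the main sodium channel of mature axon initial segments and nodes, stood at 93.7 and 92.4 against 94.2 and 93.8 at start 1. Scn1a stood at 87.8 and 85.4 against 87.1 and 86.9. Neither Cacna1b nor Scn1a separated the genotypes.

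The 5 weakest shared start regions of channel genes ranked higher in both mutants. Scn2a, whose channel serves early axons, had start 1 at 64.0 and 66.2 in controls and 76.2 and 79.3 in mutants. Its start 2 ranked at 95.7 and 95.0 against 95.9 and 95.9. Start 2 of Scn8a stood at 63.1 and 59.1 in controls against 72.7 and 77.9 in mutants. Start 1 of Cacnb3, a calcium channel β subunit gene, stood at 71.8 and 64.3 against 76.7 and 80.9. In each of these 3 genes the weaker start differed by over 10 percentile points. The stronger starts lie near the top of the scale, where a rank has little room to move, so their smaller differences say nothing of stability. Cacng3, a TARP gene, stood at 71.1 and 67.6 against 75.8 and 80.05, and Scn2b, a sodium channel β subunit gene, at 56.2 and 59.6 against 61.6 and 69.9. These were all 5 start regions of channel genes with a mean under 80 over the 4 libraries, a limit set after the values were seen, and in all 5 both mutants ranked above both controls. Of 1536 such start regions of all genes, 30.5% did so and 21.8% did the reverse. Their median difference was 2.02 points, against 0.34 for start regions of all genes at 80 or over. The rise was not confined to weak starts. Of the 21 channel start regions at 80 or over, 57.1% ranked higher in both mutants and 14.3% lower, against 42.3% and 15% over all genes.

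The strong start of Nalcn also ranked above both controls in both mutants, at 91.0 and 90.7 against 95.1 and 94.2, with the authors' fold over background at 12.1 and 12.1 against 16.0 and 15.5. Cacnb2 start 1 stood at 87.0 and 88.1 against 92.8 and 93.9. Of the 26 distinct start regions shared by all 4 lists, 17 (65.4%) ranked higher in both mutants than in both controls and 3 (11.5%) lower, against 40.5% and 16% of 10516 shared start regions of all genes. Of the 17, Cacnb1 start 1 turned to −13.8 points with windows around summits, and Scn8a start 1 and Cacna2d1 start 1 turned to −0.523 and −1.90 when ranked by fold. The 3 lower ones were those of Cacna2d3, Cacng2 and Cacng7, by −1.63, −2.23 and −1.20 points. That of Cacng7 rests on control library 1, whose interval joins 2 neighbouring peaks into the region; without it the part at the start alone was compared and the difference was 5.54. The start region of Cacnb1, among the 26, overlaps the neighbouring ribosomal gene Rpl19 and was assigned to it. A rank test over 4 libraries cannot go below an exact two-sided p = 0.333, so none of these differences could pass a threshold of 0.05.

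**Figure D1:**
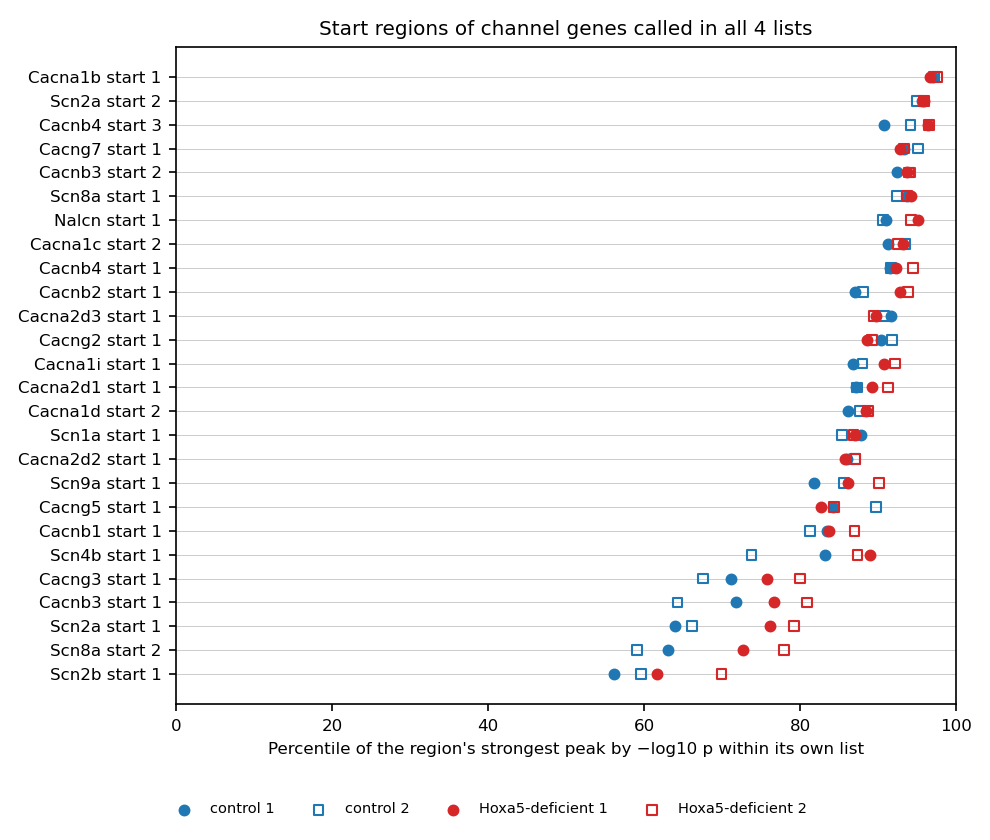
Each row is a start region of a channel gene called in all 4 lists, and the points are the 4 libraries (blue, controls; red, Hoxa5-deficient; filled, library 1; open, library 2). The horizontal axis is the percentile of the strongest peak within its own list; the 5 lowest rows have both red points to the right of both blue points.

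Over all 37 genes, regions found in both mutants and neither control (mutant-only) outnumbered those found in both controls and neither mutant (control-only) by 127 to 32. Mutant-only regions were 12.8% of the 996 regions, against a background of 9.16% over all genes, and control-only regions were 3.21%, against 3.5%. Regions called in all 4 lists numbered 315 (31.6%, against 34.7%) and those in 3 lists 105 (10.5%, against 9.66%). Those in exactly 1 library of each genotype numbered 42 (4.22%, against 4.48%), and those in a single list 375 (37.7%, against 38.5%). The libraries held 513 and 519 channel regions in controls and 631 and 689 in mutants, or 516 ± 4.24 against 660 ± 41.0 (SD, n = 2 each). As a share of all regions of a library these were 0.467% and 0.486% against 0.514% and 0.515%. The groups did not overlap in either measure, and the exact permutation test gave p = 0.333, the smallest value it can give with 2 libraries against 2.

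List length moved the size of this difference. With the same number of peaks kept in each list, there were 78 mutant-only and 46 control-only channel regions, 9.29% and 5.48%, against 6.75% and 5.73% over all genes. The definition also depends on each library. Without mutant library 1 or 2 there were 264 and 220 mutant-only regions (28.7% and 25.1%, against 23.7% and 19.8% over all genes). Without control library 1 or 2 there were 115 and 111 control-only regions (12.4% and 12%, against 13.1% and 15.1%). In these cases a call in a single list of that genotype suffices. Without mutant library 2 there were 54 control-only regions (6.15%, against 6.05%), because absence from a single mutant list then suffices. Long genes held more of the mutant-only regions. At the 9 channel genes with a body of 300 kb or more they were 15.5% of 575 regions, against 13.7% for all genes of that length; at the 12 of 100 to 300 kb they were 11.2%, against 10.2%; and at the 16 shorter ones 5.59%, against 6.83%. Whether the remaining differences go beyond gene length was not tested.

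**Figure D2:**
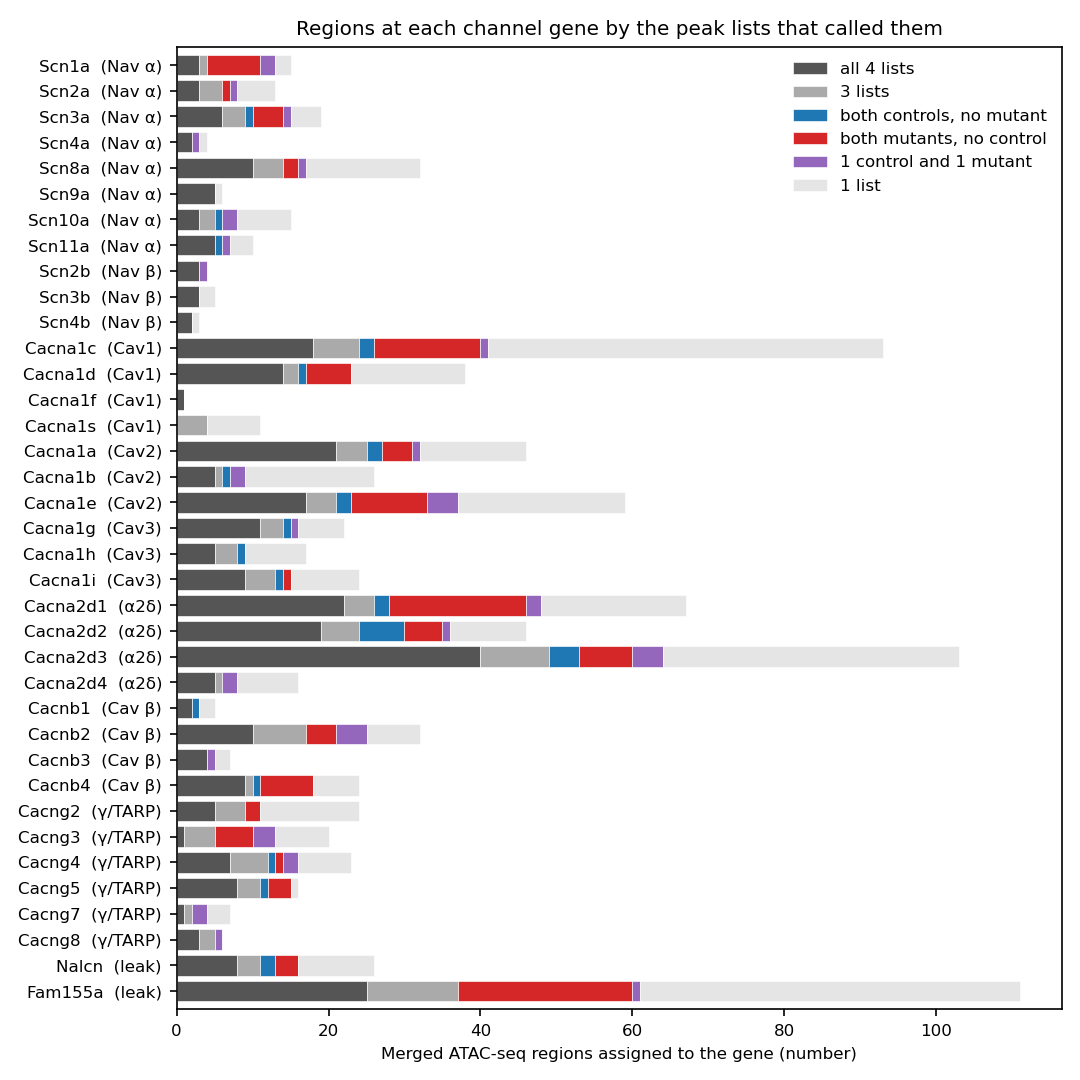
Bars give the number of merged regions assigned to each of the 37 genes, split by which of the 4 peak lists called them. Fam155a has 23 mutant-only and no control-only regions, Cacna2d1 has 18 and 2, and Cacna2d2 has 5 and 6.

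Mutant-only regions were spread over 20 of the 37 genes and control-only regions over 19, with neither at 11 genes. More mutant-only than control-only regions lay at 17 genes and fewer at 7. The order was the same in every setting tried at 8 of the 17 (Scn1a, Cacna1c, Cacna1e, Cacna2d1, Cacnb2, Cacnb4, Cacng3 and Fam155a) and at none of the 7. Together 5 genes, Fam155a, Cacna2d1, Cacna1c, Cacna1e and either of 3 genes with 7, held 72 of the 127. Of the 127 regions, 110 lay inside the gene body, and 1 of the 95 at genes with a listed start lay within 1 kb of it, with a median distance of 109 kb, or 1.05% against 1.07% for all genes; regions in all 4 lists lay at a median of 59.2 kb from a start, and 28 of 232 within 1 kb, 12.1% against 24.1% for all genes. For all genes the medians were 63.1 and 23.8 kb. As over all genes, the genotype-specific regions were narrow and weak. They had a median width of 377 bp for mutant-only and 309.5 bp for control-only regions against 739 bp for those in all 4 lists, and over all genes the widths were 393, 322 and 770 bp. The weaker of the pair of percentiles had a median of 27.4 for mutant-only and 29.4 for control-only regions, against 23.9 and 24.4 over all genes.

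**Figure D3:**
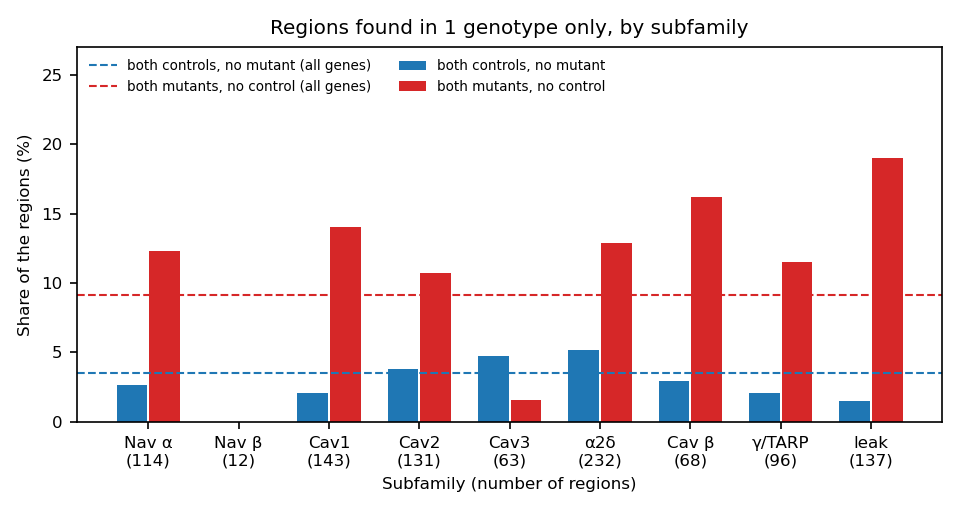
Bars give the share of each subfamily's regions that were control-only (blue) or mutant-only (red), with the number of regions under each name; dashed lines are the shares over all genes, 3.5% and 9.16%. The Cav3 genes are the subfamily with more control-only than mutant-only regions, 4.76% against 1.59%, an order that was lost with −log10 q of 5 or more and without either mutant library, and the Nav β genes had neither.

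The 8 sodium channel α genes had 114 regions, of which 14 (12.3%) were mutant-only and 3 (2.63%) control-only, against 9.16% and 3.5% over all genes. Scn1a, whose loss of function causes epilepsy, had 7 of the 14 and no control-only region, among 15 regions in all. Its libraries held 5 and 5 regions in controls and 11 and 14 in mutants. The mutant-only regions included 2 side by side in the body (chromosome 2, 66403967 to 66404320 and 66404535 to 66404986), at percentiles of 72.7 and 68.1 and of 48.5 and 68.7 in the 2 mutant lists. Another (66407167 to 66407515) stood at 58.9 and 56.7, and one further away (66292256 to 66292556) at 53.7 and 59.7. The other 3 had weaker percentiles of 4.02, 8.01 and 25.2. In the 138 kb of the body below the lowest region shared by all 4 lists, 5 mutant-only and no control-only regions lay. Single control lists had calls there too. In control library 2 they stood at 43.6 (66368014 to 66368283) and 3.12 (66407691 to 66407949). In control library 1 they stood at 26.3 (66385980 to 66386469) and 0.97 (66408123 to 66408330). The mutant-only count of the whole gene, 7, was 5 with equal peak numbers and 5 with −log10 q of 5 or more, and from 7 to 8 when any library was left out.

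Scn1a belongs to a cluster with Scn3a, Scn2a and Scn9a on chromosome 2 (65457118 to 66635114). These 4 genes held 12 mutant-only (22.6%) and 1 control-only (1.89%) region among 53, against 9.16% and 3.5% over all genes. Of the 12, 5 lay outside the gene bodies. Scn3a, the sodium channel α gene most typical of the embryonic brain, had 1 control-only region in its body and 4 mutant-only regions, all outside it. The strongest (chromosome 2, 65441690 to 65442578) lay 15.0 kb from the gene at percentiles of 74.9 and 83.7. Scn2a had 1 and Scn9a none. The pair of sensory neuron genes Scn10a and Scn11a on chromosome 9 had no mutant-only and 2 control-only (8%) regions among 25. With −log10 q of 5 or more this turned to 2 and 0, where all genes had 12.1% and 4.44%. Of the 8 regions in all 4 lists at that pair, 6 ranked higher in both mutants and 1 lower, where all genes had 36% higher and 24.2% lower. One inside Scn11a (119780795 to 119781747) stood at 59.7 and 74.8 in controls against 89.3 and 92.7 in mutants. Scn4a, the muscle channel, had 2 shared regions, both lower in both mutants, at 53.5 and 59.1 against 49.9 and 41.7 (106325633 to 106326296) and at 64.4 and 55.6 against 49.9 and 47.7 (106366330 to 106366684). Myog was the muscle marker with a peak in controls alone, and its part in this result was not tested.

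Scn8a had 32 regions, 2 mutant-only and none control-only, but none and 1 with equal peak numbers. A region in its body (chromosome 15, 100934750 to 100935182), 1.31 kb from start 2, was among the channel regions with the largest rank difference. It stood at 0.88 and 40.3 in controls and 70.0 and 70.6 in mutants. The controls lay far apart here and the mutants close together. That the groups did not overlap was a condition for naming the region. The β subunit genes Scn2b, Scn3b and Scn4b had 12 regions, 8 of them in all 4 lists and none in only 1 genotype. Of the 8, 5 ranked higher in both mutants and 1 lower, and of all genes' shared regions 36% and 24.2% did.

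Among the pore genes of calcium channels, the L-type genes had 20 mutant-only (14%) and 3 control-only (2.1%) regions of 143. Over all genes these shares were 9.16% and 3.5%. Without control library 1 the L-type genes had 21 and 22 regions, and the shares over all genes were then 13.4% mutant-only and 13.1% control-only. Cacna1c, which encodes Cav1.2, had 14 of the 20 and 2 of the 3, and Cacna1d, which encodes Cav1.3, had 6 and 1. Cacna1c held 25 and 38 regions in controls and 51 and 62 in mutants, so control library 2 lay nearer to the mutants than control library 1 did. With equal peak numbers its mutant-only count was 7, and without mutant library 1 or 2 it was 38 and 27. The strongest mutant-only region (chromosome 6, 119153378 to 119154195) lay 42.6 kb from the nearest listed start, at percentiles of 82.1 and 90.5 and folds of 10.4 and 17.8. The muscle gene Cacna1s had 11 regions, none in all 4 lists and none in only 1 genotype. Cacna1f had a single region, in all 4 lists.

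Cacna1c also held the channel regions with the largest shared differences. One (118680712 to 118681502) stood at 15.3 and 1.42 in controls and 76.6 and 72.4 in mutants, with folds of 2.49 and 2.04 against 8.31 and 7.79. Another (119128630 to 119129570) stood at 30.9 and 18.2 against 77.5 and 81.4. A different region of the same gene (118845828 to 118847004) went the other way, at 77.1 and 64.9 in controls against 30.4 and 40.7 in mutants. In each the difference between genotypes was larger than that within them. The regions were chosen as the largest differences among those whose groups do not overlap, so this separation largely follows from the choice. Of its 18 shared regions, 8 ranked higher and 2 lower in both mutants, where all genes had 36% and 24.2%, and its start 2 region did neither.

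The Cav2 genes had 14 mutant-only (10.7%) and 5 control-only (3.82%) regions of 131, against 9.16% and 3.5% over all genes. Without control library 2 they had 15 and 17, and the shares over all genes were then 13.5% and 15.1%. Cacna1e, the R-type channel gene, had 10 and 2, and its strongest (chromosome 1, 154632562 to 154633325) stood at percentiles of 81.0 and 86.8. Its count was 5 with equal peak numbers and 20 without mutant library 1. Cacna1a, the P/Q-type gene of the mature neuromuscular junction, had 4 and 2 among 46 regions, but 4 and 5 with equal peak numbers and 2 and 3 with −log10 q of 5 or more. Cacna1b had none and 1 among 26, and 6 and 1 without mutant library 1. A region inside Cacna1b (chromosome 2, 24637608 to 24638819) ranked lower in both mutants, at 75.9 and 70.6 against 51.9 and 10.3; the mutants differed from each other by more than mutant 1 differed from the controls. The T-type genes Cacna1g, Cacna1h and Cacna1i had 1 mutant-only (1.59%) and 3 control-only (4.76%) regions of 63, against 9.16% and 3.5% over all genes. This order did not hold in every setting: it was 2 and 2 with −log10 q of 5 or more, 12 and 6 without mutant library 1, and 5 and 5 without mutant library 2. Over all genes those settings gave, in the same order, 12.1% and 4.44%, 23.7% and 5.5%, and 19.8% and 6.05%. The strongest control-only region of all 37 genes lay in Cacna1g (chromosome 11, 94447048 to 94447380), at percentiles of 65.1 and 55.0. Of the 25 shared regions of these 3 genes, 48% ranked higher in both mutants and 12% lower, against 36% and 24.2% over all genes. A region 6.15 kb outside Cacna1i, at its start side (chromosome 15, 80280758 to 80281415), stood at 44.5 and 53.6 in controls and 8.01 and 16.9 in mutants.

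The α2δ genes held 232 regions, the most of any subfamily, with 30 mutant-only (12.9%) and 12 control-only (5.17%), against 9.16% and 3.5% over all genes. Cacna2d1, the α2δ-1 gene known as the gabapentin receptor, had 18 and 2, while Cacna2d2 had 5 and 6, Cacna2d3 had 7 and 4 (12 and 15 without control library 1), and Cacna2d4 had neither. Cacna2d1 held 32 and 30 regions in controls and 47 and 54 in mutants. Its mutant-only count was 14 with equal peak numbers, 12 with −log10 q of 5 or more, and from 20 to 26 when a library was left out. Cacna2d2, much shorter at 130 kb, was the gene with the most control-only regions. The strongest of these (chromosome 9, 107512236 to 107512632) stood at 52.5 and 52.0. At Cacna2d3 the 2 strongest control-only regions (chromosome 14, 29442504 to 29442838 and 29015918 to 29016308) stood at 62.7 and 48.3 and at 49.4 and 46.5. With −log10 q of 5 or more 2 control-only and 2 mutant-only regions were left at Cacna2d2, and without mutant library 1 there were 7 and 11.

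Cacna2d1 carried large differences in both directions. A region 51.3 kb from its start (chromosome 5, 15985602 to 15986419) was strong in controls, at 85.7 and 89.0 with folds of 9.73 and 12.0, and weaker in mutants, at 41.7 and 36.8 with folds of 3.55 and 3.26. This was the largest loss of rank among shared channel regions, a difference of −48.1 points. Another, 113 kb from the start (16047233 to 16048109), stood at 15.3 and 21.5 in controls against 65.7 and 71.4 in mutants. Over the 22 shared regions of the gene, 15 (68.2%) ranked higher and 4 (18.2%) lower in both mutants. At Cacna2d3 the numbers were 17 and 15 of 40 (42.5% and 37.5%). Over all genes 36% ranked higher and 24.2% lower. A region inside Cacna2d3 (chromosome 14, 29113549 to 29114722) stood at 80.8 and 80.3 against 49.9 and 33.9.

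**Figure D4:**
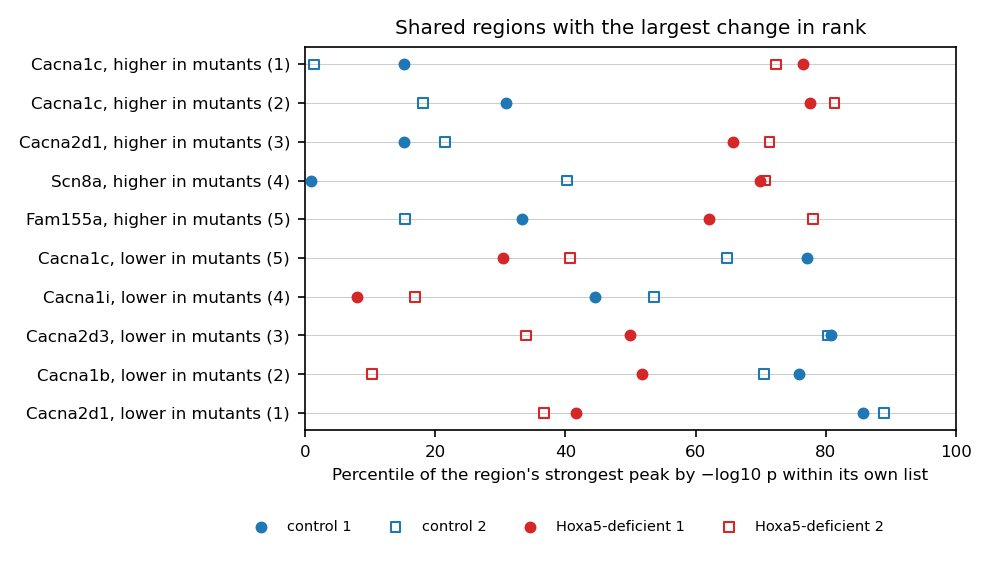
Each row is a region called in all 4 lists, 5 with the largest gain and 5 with the largest loss of percentile in mutants among channel regions whose groups do not overlap. Points are the 4 libraries, on the percentile of the strongest peak within its own list; blue and red points are apart in every row, and the red points of Cacna1b are far from each other.

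The β subunit genes had 11 mutant-only (16.2%) and 2 control-only (2.94%) regions of 68, against 9.16% and 3.5% over all genes. Cacnb4 had 7 and 1 and Cacnb2 had 4 and 0; with equal peak numbers their mutant-only counts were 3 each. The strongest mutant-only region of all 37 genes lay in Cacnb2 (chromosome 2, 14712418 to 14713536), 109 kb from the nearest listed start. It stood at percentiles of 85.4 and 87.8, with folds of 9.16 and 10.3. Cacnb1 had 1 control-only region (chromosome 11, 98012335 to 98012843, at 51.5 and 49.1) and Cacnb3 none of either kind. The γ genes had 11 mutant-only (11.5%) and 2 control-only (2.08%) regions of 96, against the same shares over all genes. Cacng3 had 5 and 0 among 20, with 6 and 5 regions in controls and 11 and 17 in mutants, and its mutant-only count was 5 with equal peak numbers, 3 inside the gene body, and 9 without mutant library 1 or 8 without control library 1. Cacng4 had 1 of each kind, and its control-only region (chromosome 11, 107809831 to 107810125), 15.3 kb outside the body, stood at 46.3 and 54.5. Cacng7 and Cacng8 had neither kind.

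The leak channel genes had 26 mutant-only (19%) and 2 control-only (1.46%) regions of 137, against 9.16% and 3.5% over all genes. Nalcn, the pore, had 3 and 2 of its 26 regions (11.5% and 7.69%), but 1 and 2 with equal peak numbers. Fam155a had 23 (20.7%) and 0 of 111, the most mutant-only regions of the 37 genes. Whether these 2 genes differ was not tested. Fam155a held 47 and 40 regions in controls and 75 and 72 in mutants, and the groups did not overlap. Of the 23, 19 lay inside the 567 kb body. The longest stretch of the body with no region shared by all 4 lists spanned 224 kb (chromosome 8, 9547279 to 9771572). It held 6 of these 19 mutant-only regions and 13 regions called in a single list. This stretch was chosen for its lack of shared regions. The whole gene had no control-only region, so none could lie there. The strongest of the 23 (9734642 to 9735616) lay in this stretch, at percentiles of 74.6 and 82.3. The next (9131598 to 9132302) lay 74.1 kb outside the body, at 69.6 and 73.3. The mutant-only count was 13 with equal peak numbers, with 1 control-only region, and 19 with −log10 q of 5 or more, with none. Without mutant library 1 or 2 it was 34 and 38, and without control library 1 or 2 the control-only count was 9 and 15. Leaving Fam155a out of the 37 genes gave 104 mutant-only regions of 885, or 11.8%.

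**Figure D5:**
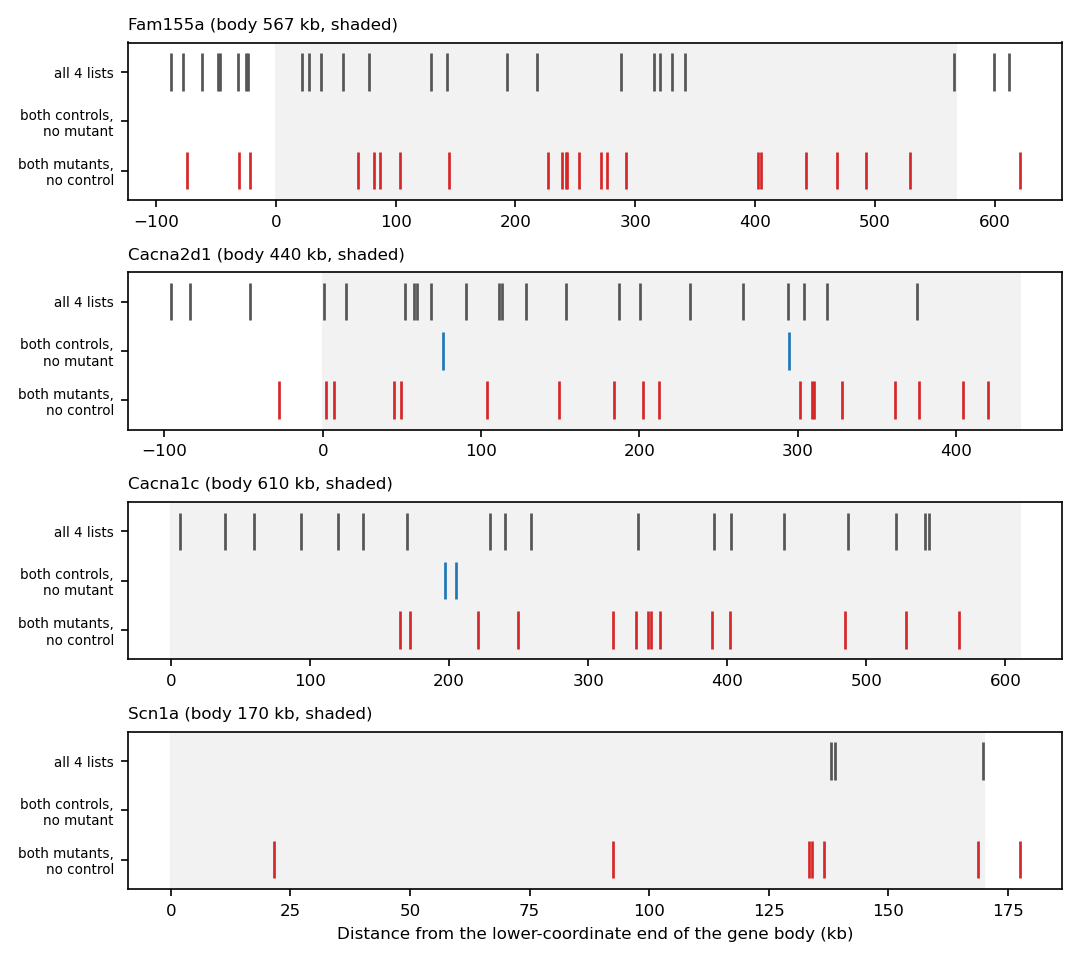
Each line is a region at Fam155a, Cacna2d1, Cacna1c or Scn1a, placed by its distance in kb from the lower-coordinate end of the gene body (shaded), in rows for regions in all 4 lists, control-only and mutant-only regions. Mutant-only regions lie along most of each body; Fam155a and Scn1a have no control-only region.

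Regions called in all 4 lists can be compared by rank, although weak peaks had to pass the call in every list to be among them. Over the 315 of them, the percentile was higher in mutants by a median of 3.02 points, against 0.52 points over 57551 shared regions of all genes. With −log10 q of 5 or more, 206 regions were shared and the median was 1.34 points, against 0.30 over all genes, and without mutant library 2 it was 1.95, against 0.23. In the control libraries the 315 had median percentiles of 65.4 and 65.2, and in the mutant libraries 68.9 and 72.0, or 65.3 ± 0.166 against 70.5 ± 2.204 (SD, n = 2 each; exact permutation p = 0.333, the smallest possible). Shared regions of all genes stood higher, with medians of 72.9 and 71.7 in controls and 73.5 and 75.4 in mutants. The values over all genes are therefore not those of regions of equal rank. Of the 315 channel regions, both mutants ranked above both controls at 140 (44.4%) and below them at 68 (21.6%), against 36% and 24.2% over all genes. For the pore-forming genes these shares were 41.1% higher and 17.1% lower, and for the auxiliary ones 47.3% and 25.4%. By subfamily the median difference ran from 0.46 points at the Cav2 genes to 7.29 at the leak channel genes. Fam155a had 14 higher and 5 lower of 25, with a median difference of 10.96, and Nalcn 3 and 2 of 8, with −1.80. The largest gain at Fam155a (chromosome 8, 9243601 to 9244313) was from 33.3 and 15.4 in controls to 62.0 and 78.1 in mutants. Cacnb2 had 4 higher and none lower of 10, with 10.4.

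Genes of channel partners, 24 in number, were read in the same way: further channel subunits, the Nalcn partners Unc79 and Unc80, the sodium channel binding factors Fgf11 to Fgf14, the ankyrins and other proteins of the axon initial segment, active zone proteins that tether calcium channels, and calcium channel regulators and ryanodine receptors. They had 87 mutant-only (12.2%) and 29 control-only (4.07%) regions of 713, against 9.16% and 3.5% over all genes. Rims1, an active zone scaffold gene, had 16 and 0 among 51 regions, Fgf12 had 8 and 0, and Ank2 had 10 and 9. Of 203 shared regions 43.8% ranked higher in both mutants and 18.2% lower, against 36% and 24.2% over all genes. The channel genes and these partner genes thus had similar shares of both kinds; the difference between the lists was not tested.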

How the data were processed

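The authors deposited 1 peak list per library, in the form MACS2 writes. Per the submitters' processing notes, FastQC 0.11.9, Bowtie2 2.3.4.3, SAMtools 1.9 and MACS2 2.2.4 were used with the build mm10; parameters and any shift of reads for Tn5 are not given in the sources used here. Deposited values per peak are a score capped at its maximum, a fold enrichment ratio over local background, −log10 of the p-value and −log10 of the q-value; other deposited columns are base positions. The lowest deposited −log10 p is 2.00 in each list, and a q-value under 0.05 was reached by 90.3% to 92.8% of its summits. Fold and p are the authors' values of single peaks, used only to describe and rank within a list.

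Intervals were merged and assigned with Python 3.11.15, NumPy 2.4.6, pandas 2.3.3 and SciPy 1.17.1, on 21883 protein-coding bodies of a RefSeq table (GRCm38.p6); 1 partner gene, Fam155b, was matched by its synonym. The scripts were tested on simulated lists. Regions are not replicates, so no test runs over them; a group has 2 libraries, and whether they came from separate litters is not given, so the spread may be technical. Single regions named are the 6 strongest control-only and mutant-only ones, the 5 largest differences of shared regions in each direction, and start regions; others named, and the 4 genes mapped, were chosen after their values were seen. The members and lists were chosen with earlier results of these data known. Alternatives were a q threshold, equal peak numbers, windows of 100 bp around summits, other assignments, ranking by fold and leaving out each library.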

Additional observations from a re-analysis of the deposited data

How the results depend on the processing

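The direction of the main results (more mutant-only than control-only regions, and a higher rank of shared channel regions in mutants) was the same under each alternative run. Their size was not. Mutant-only regions numbered 78 with equal peak numbers, 92 with −log10 q of 5 or more, and from 159 to 264 when a library was left out (all genes 6.75%, 12.1% and 13.4% to 23.7%). Control-only regions numbered 46, 23 and from 46 to 115 (all genes 5.73%, 4.44% and 5.5% to 15.1%). Without control library 2 all genes had more control-only (15.1%) than mutant-only (13.5%) regions. The median rank difference of shared regions was 1.34 points with −log10 q of 5 or more, which removes weak regions, 2.48 when ranked by fold, and from 1.95 to 3.71 when a library was left out. Among start regions 4 reversed. Cacnb1 start 1 went from 2.92 to −13.8 points with summit windows, Cacng7 start 1 from −1.20 to 5.54 without control library 1 (from −1.43 to 5.54 over all left-out libraries), where the merged region splits, and Scn8a start 1 and Cacna2d1 start 1 from 0.91 and 3.02 to −0.523 and −1.90 when ranked by fold; the cause of the other 3 was not tested. Taking the difference within library pairs of the same number (replicate block) gave 3.02 points, the same by construction. The numbers share no stated litter or day, and the deviations of same-numbered libraries correlated at 0.0515 over the shared channel regions. Read depth is not stated, and a region absent from a list may be open below its threshold.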
